A study of Mus musculus with 4 samples.

Results

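The 10 genes described here encode transcription factors of myeloid progenitors: the C/EBP family members Cebpa, Cebpb, Cebpd and Cebpe, the ETS factor PU.1 (Spi1), Gfi1, Irf8, Runx1, Myb and Myc. They were taken as the rows of the deposited expression table whose Ensembl gene IDs carry these symbols in GENCODE M21, and all 10 were found among 23552 genes. RNA-seq profiled c-Kit+ leukemic cells that had been enriched from bone marrow of moribund C57BL/6 mice with MLL-AF9-induced acute myeloid leukemia (AML). MLL-AF9 is a fusion oncoprotein, and c-Kit is a stem and progenitor cell receptor used to enrich for leukemia-initiating cells. The control group (n = 2, replicates 3 and 4) overexpressed an eGFP control, and the SUV-OE group (n = 2, replicates 2 and 3) overexpressed Suv39h1-eGFP, which encodes a histone H3K9 methyltransferase that deposits a repressive chromatin mark. All 4 libraries carried MLL-AF9. Mice were 8-week-old females. Lentivirus delivered the constructs into serially transplanted MLL-AF9 leukemia cells, and sorted eGFP+ cells were given to sublethally irradiated recipients, so both groups descend from passaged leukemia and the recipients kept host marrow. The labels do not say whether replicates came from separate mice, so p-values measure only the spread between these libraries.

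In normal hematopoiesis these factors work as an interlocking network. PU.1 and C/EBPα open the myeloid program, Runx1 and Myb maintain the stem and progenitor state, Myc drives growth and proliferation, and Irf8 and Gfi1 promote the monocytic and the granulocytic branch, respectively. C/EBPε acts late in granulocyte maturation, where it turns on secondary granule genes. In MLL-rearranged AML, Myb, Myc, PU.1 and C/EBPα are known as parts of the leukemic program.

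The deposited unit was FPKM, a read count scaled by gene length and by library depth, so that levels can be set side by side between genes. Whole read numbers could be recovered from the FPKM steps, and they summed to between 20117453 and 23603754 reads per library. Each of the 10 genes had between 596 and 29176 reads in every library. Suv39h1 itself stood at 12.4 FPKM in both controls and at 75.3 and 81.2 in the SUV-OE libraries, a log2 fold change of 2.56 (adjusted p = 0.00866, limma), as the labels state. All 9 markers of myeloid progenitors passed the filter on low values. Both SUV-OE libraries lay above both controls (separated upward) for 3 and below both (separated downward) for 3. Over all tested genes these shares were 25.4% and 28.4%. None of the 9 was a DEG by limma (3 had an unadjusted p under 0.05). Voom called Cd93, beside 5.39% of all genes it tested. Cd93, a progenitor surface receptor, was at 30.8 and 29.4 FPKM in controls and 61.4 and 53.9 in SUV-OE, and the receptor gene Flt3 at 10.3 and 9.08 against 6.20 and 4.18. Kit, the gene behind the sort, was 20.4 and 19.2 FPKM in controls and 28.6 and 25.4 in SUV-OE libraries (log2 fold change 0.43, adjusted p = 0.160 in the same limma fit). The libraries were compared by limma on log2(FPKM + 1) over 13736 genes whose mean FPKM reached 0.5. A differentially expressed gene (DEG) had an adjusted p under 0.05 and a log2 fold change that reached 1 in either direction. The pseudocount of 1 shrinks the fold change of low genes. With this definition 168 genes were DEGs, 1.22% of those tested (0.815% higher and 0.408% lower in SUV-OE). A fit with 1 library left out has a group of 1, so a call lost in it does not show which libraries that gene rests on.

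Of the 10 transcription factors, Irf8 was the one DEG, and it rose in SUV-OE cells. Runx1 had the next highest fold change, with both SUV-OE libraries above both controls, and missed the adjusted threshold. Cebpb, Cebpe and Spi1 had both SUV-OE libraries below both controls without passing the test. The groups overlapped for Cebpa, Cebpd, Gfi1, Myb and Myc. Thus 2 of 10 were separated upward and 3 of 10 downward, where 25.4% and 28.4% of all tested genes were. The median log2 fold change of the 10 genes was -0.10, beside -0.02 over all tested genes. It had no stable sign, at -0.35 without control replicate 4, 0.04 without control replicate 3 and 0.07 after quantile normalization. Of the 10, 2 (Irf8 and Runx1) had an unadjusted p under 0.05 by limma, as did 2842 of the 13736 genes. Without overlap were 8 of the 10 when control replicate 3 was left out and 10 when control replicate 4 was, since a group of 1 overlaps less.

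The factors lay on very different levels. Across the 4 libraries the FPKM of single factors ran from 5.01 for Irf8 to 242 for Cebpe. By mean FPKM the order was Cebpe, Myb, Spi1, Gfi1, Cebpa, Myc, Cebpd, Cebpb, Runx1 and Irf8. Cebpe was highest in both controls and Myb in both SUV-OE libraries, while Runx1 was next to last and Irf8 last in every library. Cebpa, Cebpd, Gfi1 and Myc, between these, had ranges over the 4 libraries that overlapped one another, so their order is not separated by the spread. Cebpe and Myb, Cebpd and Cebpb, and Runx1 and Irf8 also overlapped as neighbours. Spi1 lay apart from Myb above it and Gfi1 below it, and Cebpb lay apart from Runx1.

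**Figure D1:**
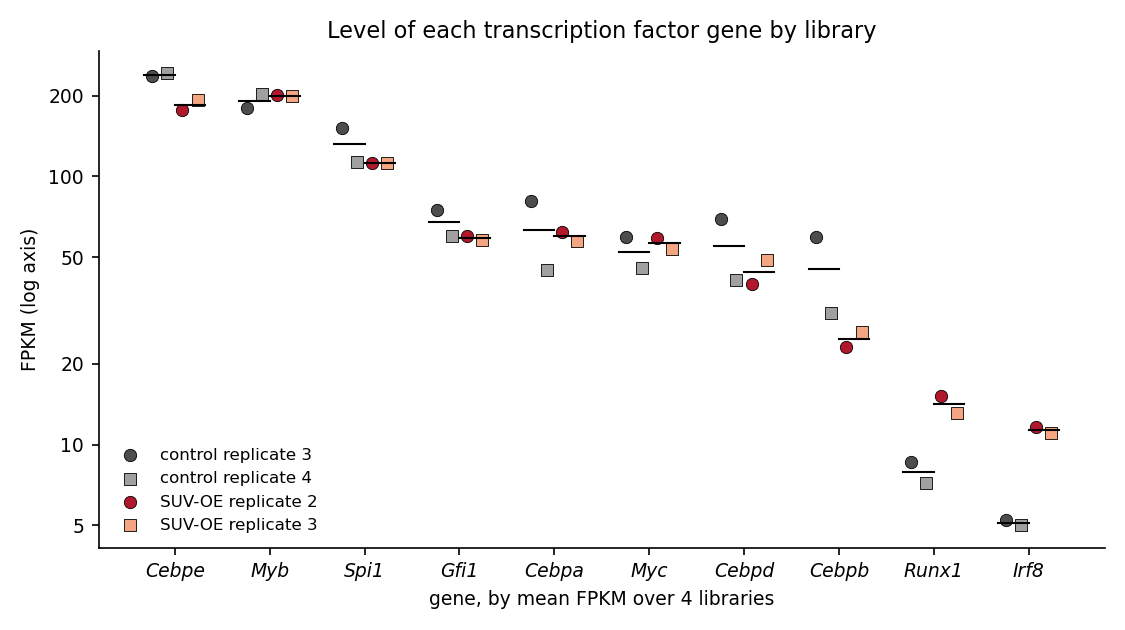
FPKM (vertical log axis) of each transcription factor gene in control replicates 3 and 4 (grey) and SUV-OE replicates 2 and 3 (red), ordered by mean FPKM, with black lines at group means (n = 2). Irf8 and Runx1, the lowest of the genes, have both SUV-OE points above both control points, while Cebpa, Cebpb and Cebpd show wide gaps between the control points.

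Irf8 (ENSMUSG00000041515, mm10 chr8:120736358-120756694, plus strand), the factor that directs progenitors to monocytes and dendritic cells and restrains granulocytes, was at 5.22 and 5.01 FPKM in controls and at 11.6 and 11.0 in SUV-OE libraries. Both SUV-OE libraries were clearly higher, and the libraries of each group lay close together. Mean FPKM was 5.12 ± 0.15 (SD, n = 2) in controls and 11.3 ± 0.42 (SD, n = 2) in SUV-OE, a 2.22-fold ratio. On the log2(FPKM + 1) scale the change was 1.01 (SE 0.11, 95% interval 0.72 to 1.30, adjusted p = 0.0405, limma), just past the fold threshold, and 395 genes (2.88% of those tested) had a higher log2 fold change. In reads recovered from the FPKM, which need no pseudocount, limma-voom gave 1.24 (SE 0.15, adjusted p = 0.00562), and the adjusted p ranged from 0.00562 to 0.348 over the alternatives. The call was lost without the filter on low values (adjusted p = 0.113, limma) and when any 1 library was left out. In each of these fits the calls of all other genes were lost too. With a library left out, the log2 fold change of Irf8 stayed between 0.98 and 1.05. In bulk RNA, more cells of a type and more RNA per cell cannot be told apart.

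Irf8 is also a gene of B cells, monocytes and macrophages, so the markers of these cells are given beside it. Of 11 tested B-lymphoid markers, 9 had both SUV-OE libraries above both controls, and voom called 8. For these and the next marker counts, 25.4% of all tested genes were separated upward and 28.4% downward. Voom called 5.39% of all genes it tested. The B-lymphoid list had a median log2 fold change of 1.38. This median was 0.77 without SUV-OE replicate 3, 1.99 without SUV-OE replicate 2 and 4.64 with voom. The summed FPKM of the list was 22.1 and 30.8 in controls and 44.0 and 102 in SUV-OE libraries. Vpreb1, of the surrogate light chain of pre-B cells, was at 0.277 and 0.745 FPKM in controls and 6.23 and 19.3 in SUV-OE, and Cd79a, of the B cell receptor, at 0.635 and 1.10 against 5.49 and 11.7. Ms4a1, a defining marker of mature B cells named because it was at the floor, had no more than 3 reads in any library. Monocyte and macrophage markers were higher in both SUV-OE libraries for 7 of 10 and lower for 2 of 10, and voom called 4. Their median log2 fold change was 0.53 (0.41 to 0.69 over the alternatives). Their summed FPKM was 421 and 713 in controls and 418 and 453 in SUV-OE. The neutrophil markers, all 10 of 10 separated upward, summed to between 753 and 2390 FPKM in controls and between 6653 and 8102 in SUV-OE. The part of B-lymphoid cells, monocytes, macrophages and neutrophils in the level of Irf8 was not tested.

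Runx1 (ENSMUSG00000022952, mm10 chr16:92601466-92826149, minus strand), the DNA-binding subunit of core-binding factor and a regulator of stem cell emergence and myeloid maturation, was at 8.60 and 7.22 FPKM in controls and at 15.2 and 13.2 in SUV-OE libraries. Both SUV-OE values were well above both controls. Mean FPKM was 7.91 ± 0.98 (SD, n = 2) in controls and 14.2 ± 1.41 (SD, n = 2) in SUV-OE, a 1.79-fold ratio. The log2 fold change of 0.77 (SE 0.14, 95% interval 0.40 to 1.14) had an adjusted p of 0.0872 by limma and was below the fold threshold, and 667 genes (4.86%) had a higher one. With limma-voom on recovered reads it was 0.94 with an adjusted p of 0.0230, and the adjusted p ran from 0.0230 to 0.545 over the alternatives. At an adjusted p under 0.05 and any fold, voom called Irf8 and Runx1, 2 of the 10 genes, beside 7.07% of the 14334 genes it tested. Beside Runx1, which progenitors of erythroid, megakaryocytic and mast cells share, the summed FPKM of erythroid markers was 19.5 and 142 in controls and 134 and 103 in SUV-OE, that of megakaryocyte markers 6.75 and 13.0 against 24.1 and 28.4, and that of mast cell, basophil and eosinophil markers 53.7 and 115 against 213 and 158. Their part in the level of Runx1 was not tested.

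Promoters of Irf8 and Runx1 are shown because these were the genes with both SUV-OE libraries above both controls. RefSeq windows (GRCm38.p6, the assembly named mm10, 250 bases before and 50 after each start site) were found for 6 of the 10 genes, 9 windows in all: Cebpa, Cebpb and Myb with 1 each, and Gfi1, Irf8 and Runx1 with 2 each. Below, bases upstream of the start site are printed 5′ to 3′ on the gene's strand. Capitals mark, in Irf8, both matches to the STAT-type motif TTCNNNGAA and the TATA box. In the Runx1 proximal promoter they mark the ETS motif GAGGAA, which lies on the opposite strand. Other sites with the shorter ETS core GGAA, such as ccggaa in the same stretch, were not searched and are not marked.
Irf8, chr8:120736108-120736357, plus strand: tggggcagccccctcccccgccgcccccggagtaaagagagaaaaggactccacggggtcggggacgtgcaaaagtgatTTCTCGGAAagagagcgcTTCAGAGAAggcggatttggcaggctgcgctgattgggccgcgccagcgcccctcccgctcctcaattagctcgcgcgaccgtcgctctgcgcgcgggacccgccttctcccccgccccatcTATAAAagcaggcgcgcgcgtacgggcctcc
Runx1 proximal promoter, chr16:92697330-92697579, minus strand: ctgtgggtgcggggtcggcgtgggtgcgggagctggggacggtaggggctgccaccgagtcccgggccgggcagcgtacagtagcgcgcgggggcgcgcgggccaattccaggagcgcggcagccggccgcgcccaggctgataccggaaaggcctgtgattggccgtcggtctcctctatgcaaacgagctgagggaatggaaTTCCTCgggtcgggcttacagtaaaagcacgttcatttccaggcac
Runx1 distal promoter, chr16:92826150-92826324, minus strand, the bases before its first annotated exon: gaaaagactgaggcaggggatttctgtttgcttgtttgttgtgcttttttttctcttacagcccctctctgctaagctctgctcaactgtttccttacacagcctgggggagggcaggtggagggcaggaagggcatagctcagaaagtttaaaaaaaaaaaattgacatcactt
Counted from the start site, the Irf8 motifs begin at -171 and -153 and its TATA box at -31, and the marked Runx1 ETS motif covers -46 to -41. The Irf8 and proximal Runx1 windows were rich in CpG, with 38 and 35 CpG dinucleotides and a GC content of 70.0% and 69.0%, whereas the distal Runx1 window had 2 CpGs and 45.0% GC. The other Irf8 window, inside the gene and not printed, had 8 CpGs and 54.7% GC, and the median over all windows was 7 CpGs. The windows of the 6 genes had a median GC content of 67.3%, beside 52.7% over all 32851 windows.

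Motifs were searched on both strands, and the shares of all windows that held each are given for scale. The C/EBP motif TTGCNNAA was in 10.8% of all windows and in a Gfi1 window. The ETS motif GAGGAA was in 28.3% of all windows and in the proximal Runx1 window. The RUNX motif TGTGGT, in 16.8% of all windows, occurred in the distal Runx1 window, at 28 and 36 bases after its start. The same window held the E-box CACGTG, in 7.15% of all windows, upstream of the start at -71. The MYB motif TAACNG, in 23.3% of all windows, was in 1 window each of Irf8 and Runx1. The IRF motif, a pair of GAAA repeats with NN between them, held by 3.44% of all windows, was in none of the 9 windows. The TTCNNNGAA and TATAAA motifs, which were added after the sequences had been seen, were in 8.30% and 13.6% of all windows, and TATAAA was also in the windows of Cebpa and Cebpb. Motif matches are letters in these windows and say nothing of binding.

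The C/EBP genes had lower or overlapping values in SUV-OE cells, and none passed the test. Cebpe (ENSMUSG00000052435, mm10 chr14:54710360-54712174, minus strand) was at 237 and 242 FPKM in controls and 177 and 193 in SUV-OE libraries. The groups did not overlap, and the controls lay close together. Its estimated log2 fold change was -0.37 (SE 0.15, 95% interval -0.77 to 0.02, adjusted p = 0.262, limma), an interval that reaches just past 0.

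Cebpb (ENSMUSG00000056501, mm10 chr2:167688915-167690418, plus strand), the factor of emergency granulopoiesis and macrophage activation, was at 59.5 and 31.0 FPKM in controls and 23.1 and 26.3 in SUV-OE. Both SUV-OE libraries were lower, but the controls lay further apart (45.2 ± 20.1, SD, n = 2) than the lower control lay from SUV-OE (24.7 ± 2.27, SD, n = 2). The log2 fold change of -0.78 (SE 0.32, 95% interval -1.61 to 0.05) had an adjusted p of 0.263 by limma, and it was -0.32 without control replicate 3 and -1.24 without control replicate 4. The libraries were counted without a stated strand setting, and 20.7% of the exon bases of Cebpb lie opposite exons of Tmem189, which stood between 7.31 and 8.88 FPKM.

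Cebpa (ENSMUSG00000034957, mm10 chr7:35119293-35121928, plus strand), which is needed to form granulocyte-monocyte progenitors, was at 81.1 and 44.9 FPKM in controls and 62.0 and 57.5 in SUV-OE. Both SUV-OE values lay between the controls. The log2 fold change was -0.02 (95% interval -0.78 to 0.75, adjusted p = 0.981, limma), so these libraries leave room for a change of either sign.

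Cebpd (ENSMUSG00000071637, mm10 chr16:15887286-15891031, plus strand), an inducible member of the family, was at 69.3 and 41.0 FPKM in controls and 39.6 and 48.7 in SUV-OE, again overlapping, with a log2 fold change of -0.27 (SE 0.28, adjusted p = 0.618, limma). Of its exon bases, 15.0% lie opposite exons of Spidr, which stood between 16.5 and 17.1 FPKM.

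Cebpe made up most of the C/EBP sum in every library. Its share of the summed FPKM of the 4 genes was 53.0% and 67.4% in controls and 58.7% and 59.2% in SUV-OE, and these ranges overlapped. The ratio of Cebpa to Cebpb was 1.36 and 1.45 in controls and 2.68 and 2.19 in SUV-OE. Here the groups did not overlap and the controls were close, although each gene alone differed widely between them.

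Spi1 (ENSMUSG00000002111, mm10 chr2:91082390-91115756, plus strand), which encodes PU.1, was at 152 and 113 FPKM in controls and at 112 in both SUV-OE libraries. The lower control lay next to the SUV-OE values, so the separation of the groups was narrow, and the groups overlapped after quantile or median-of-ratios scaling and with voom. The log2 fold change was -0.23 (SE 0.19, 95% interval -0.71 to 0.26, adjusted p = 0.540, limma). It was -0.016 without control replicate 3 and -0.44 without control replicate 4.

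Gfi1 (ENSMUSG00000029275, mm10 chr5:107716657-107726036, minus strand), a zinc finger repressor that opposes the monocytic program, was at 74.9 and 60.0 FPKM in controls and 60.1 and 57.9 in SUV-OE, with overlapping groups and a log2 fold change of -0.18 (95% interval -0.58 to 0.22, adjusted p = 0.552, limma). The log2 fold change of Gfi1 was -0.022 without control replicate 3, -0.34 without control replicate 4 and -0.0025 after quantile normalization. Set against Irf8, both Spi1 and Gfi1 were lower in SUV-OE cells. Within a library, the ratio of Spi1 to Irf8 was 29.0 and 22.6 in controls and 9.63 and 10.1 in SUV-OE, and that of Gfi1 to Irf8 was 14.3 and 12.0 against 5.17 and 5.25. The ratio of Spi1 to Runx1 was 17.6 and 15.7 against 7.39 and 8.49. The ratio of Spi1 to Cebpa, at 1.87 and 2.52 against 1.81 and 1.94, overlapped. These pairs were chosen after their values had been seen and were not tested.

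**Figure D2:**
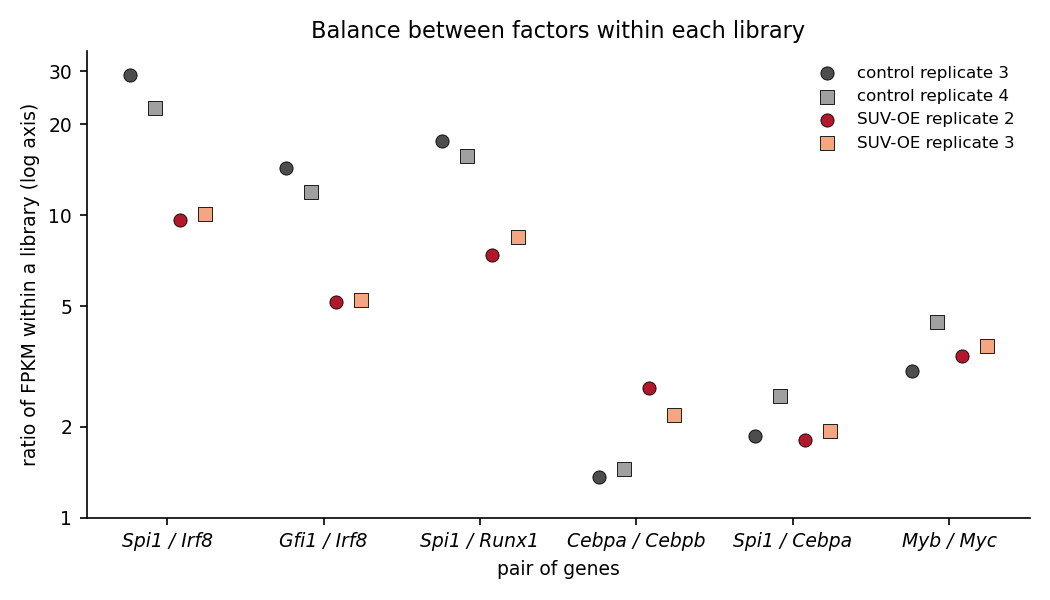
Ratio of the FPKM of a pair of transcription factor genes within each library (vertical log axis), for control replicates 3 and 4 (grey) and SUV-OE replicates 2 and 3 (red). The ratios of Spi1 and Gfi1 to Irf8 and of Spi1 to Runx1 are lower in both SUV-OE libraries, that of Cebpa to Cebpb is higher, and those of Spi1 to Cebpa and of Myb to Myc overlap.

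Myb and Myc, the progenitor and growth factors of the group, did not separate. Myb (ENSMUSG00000019982, mm10 chr10:21124935-21160984, minus strand), required for self-renewal of MLL-AF9 leukemia, was at 181 and 202 FPKM in controls and 201 and 198 in SUV-OE. The estimated log2 fold change of 0.06 (95% interval -0.34 to 0.46, adjusted p = 0.841, limma) excluded a change as large as the fold threshold in either direction. Myc (ENSMUSG00000022346, mm10 chr15:61985391-61990374, plus strand) was at 59.2 and 45.4 FPKM in controls and 58.8 and 53.6 in SUV-OE, with a log2 fold change of 0.11 (95% interval -0.33 to 0.55, adjusted p = 0.742, limma). For both genes the SUV-OE values lay between the controls, although those of Myb lay above both controls after quantile normalization and with voom. The ratio of Myb to Myc was 3.05 and 4.45 in controls and 3.42 and 3.70 in SUV-OE.

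**Figure D3:**
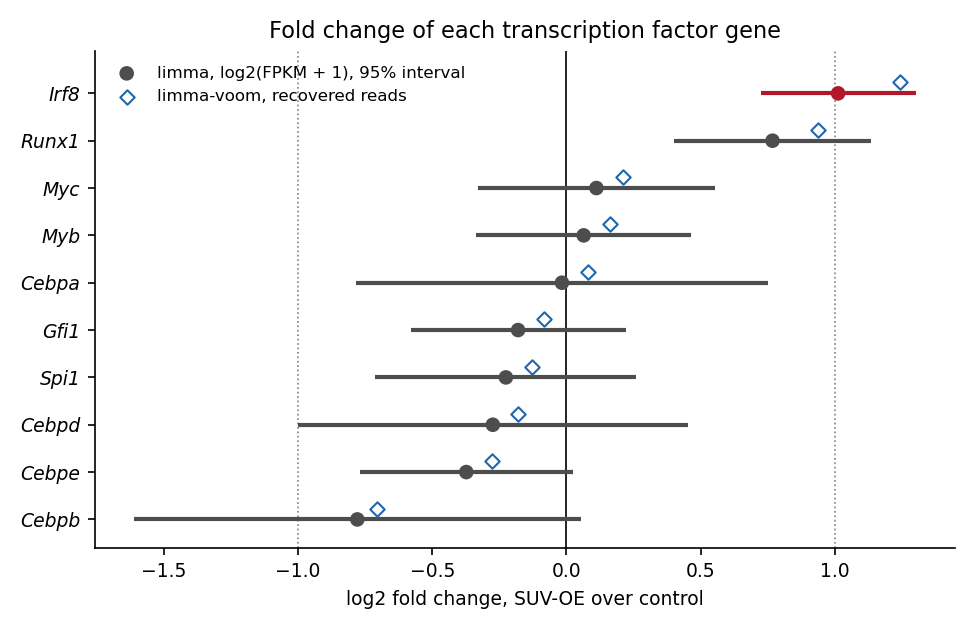
Log2 fold change of each transcription factor gene in SUV-OE over control (horizontal axis), by limma on log2(FPKM + 1) with its 95% interval (filled points and bars; the DEG Irf8 in red) and by limma-voom on recovered reads (open diamonds), with dotted lines at the fold threshold. The intervals of Irf8 and Runx1 lie above 0, and those of the other 8 genes include 0.

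The control libraries differed from each other more than most fold changes. In 8 of the 10 genes control replicate 3 was above control replicate 4, where 49.8% of all tested genes were, and in 8 the interval for counting error alone excluded an equal level. The ratio of replicate 3 to replicate 4 was 1.81 (95% counting interval 1.71 to 1.90) for Cebpa, 1.92 (1.76 to 2.09) for Cebpb and 1.69 (1.61 to 1.77) for Cebpd. It was 1.04 (0.94 to 1.16) for Irf8. In 7 of the 10 genes the log2 difference between the controls was larger than the log2 fold change between groups. The SUV-OE libraries lay closer together in 8 of the 10, as they did over all tested genes, where the median absolute log2 difference was 0.22 between controls and 0.13 between SUV-OE libraries.

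Some rapidly induced genes, chosen after their values had been seen, differed between the controls in the same direction. Egr1 was at 64.1 and 10.3 FPKM in controls and 11.9 and 47.1 in SUV-OE, and Trib1, which promotes the degradation of C/EBPα, at 7.61 and 2.07 against 0.742 and 4.94. Both were also higher in SUV-OE replicate 3, as Cebpb and Cebpd were, whereas Cebpa was not. Their part in the C/EBP levels was not tested.

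**Figure D4:**
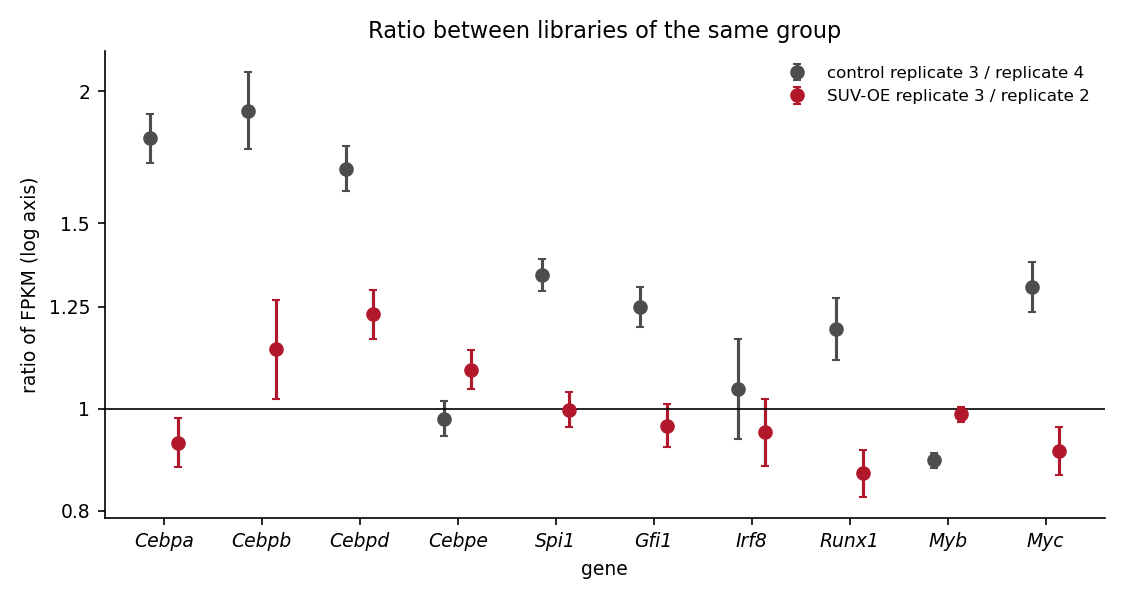
Ratio of FPKM between libraries of the same group (vertical log axis) for each transcription factor gene: control replicate 3 over replicate 4 (grey) and SUV-OE replicate 3 over replicate 2 (red), with 95% intervals for counting error only. Cebpa, Cebpb and Cebpd show the highest ratios between controls, and Irf8 and Cebpe lie near 1.

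Relatives and partners of each factor were gathered in 7 lists. Of their 46 tested genes none was a DEG by limma, 8 had an unadjusted p under 0.05, and voom, which tested 51, called 4, namely Irf4, Gfi1b, Spib and Mycn, all higher in SUV-OE and low in every library. By the same rule voom called 5.39% of all genes it tested. The 3 genes of each list with the highest absolute fold change among those without overlap were eligible to be named, and Spib and Mycn were named after their values had been seen. Counts of separated genes, here and for the target lists, stand beside 25.4% upward and 28.4% downward over all tested genes. Of the 7 tested members of the IRF family beside Irf8, 6 had both SUV-OE libraries above both controls and none below, and the median log2 fold change was 0.42. Irf7, the interferon-response factor, was at 4.54 and 4.45 FPKM in controls and 7.20 and 7.38 in SUV-OE (log2 fold change 0.59, adjusted p = 0.0920, limma), Irf1 had a log2 fold change of 0.57 and Irf4, a low gene, of 0.66. Over the alternatives this median stayed between 0.34 and 0.56. Of 8 tested ETS factors beside Spi1, 3 were separated upward and 2 downward, and Erg, a stem cell ETS factor, was at 34.5 and 31.7 FPKM in controls and 55.1 and 50.4 in SUV-OE (log2 fold change 0.65, adjusted p = 0.0898, limma).

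Of 6 genes for the Gfi1 paralog and its corepressors, 1 was separated upward and 2 downward. Gfi1b, the paralog used in erythroid and megakaryocytic cells, had 4 reads in each control and 93 and 61 reads in SUV-OE libraries, or 0.112 and 0.130 against 2.86 and 1.87 FPKM, with a log2 fold change of 1.57 (adjusted p = 0.0537, limma). Gfi1 was far above Gfi1b in every library. In the RUNX complex, with 5 tested, Runx2 had a log2 fold change of 0.47 and Cbfb, the partner of Runx1, of -0.14. The median of the list turned with the control left out, at 0.19 without replicate 3 and -0.22 without replicate 4. Of 5 tested C/EBP relatives and partners, Atf4 was separated downward (log2 fold change -0.73) and Cebpg upward (0.28). Of 6 MYB relatives and coactivators, Mybl2, a cell cycle factor, was lower (-0.55), and of 9 in the network of Myc and Max, Mxd1, an antagonist of Myc, was higher (5.52 and 4.89 against 8.78 and 8.46 FPKM, log2 fold change 0.63, adjusted p = 0.0923, limma).

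Target lists, written from general knowledge of each factor but with earlier results of these data known, are given beside that factor. Of 11 secondary and tertiary granule genes that C/EBPε controls, 3 rose as DEGs, 9 were separated upward and 2 downward, with a median log2 fold change of 1.49 (1.28 to 1.86 over the alternatives), and voom called 7, where limma called 1.22% and voom 5.39% of all genes. Lactoferrin (Ltf) was at 19.9 and 40.3 FPKM in controls and 212 and 241 in SUV-OE (log2 fold change 2.95), and Cd177, a neutrophil surface protein, at 21.1 and 22.0 against 63.3 and 61.5 (1.49). The integrin gene Itgb2l was the other DEG (1.69). Cebpe itself, at the same time, had lower values in SUV-OE. Of these 11 genes, 5 are also among the neutrophil markers whose summed level is given above, and the part of mature neutrophils in their level was not tested. Of 9 primary granule and receptor genes of C/EBP factors, 2 were separated upward and 4 downward with no DEG by limma (3 with an unadjusted p under 0.05, and Lyz2 called by voom), among them Lyz2 (log2 fold change 2.24, adjusted p = 0.0596, limma), Ctsg (-0.95) and the receptor gene Csf3r (0.80).

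Of 18 PU.1 targets, 8 were separated upward and 2 downward, with a median log2 fold change of 0.12 (0.063 without control replicate 3, 0.34 without control replicate 4 and 0.30 after quantile normalization). The DEG among them was Cybb, the catalytic subunit of the phagocyte oxidase, at 4.43 and 6.75 FPKM in controls and 32.1 and 28.6 in SUV-OE (log2 fold change 2.27). Phagocytes include neutrophils, whose markers moved as given above, and their part in the level of Cybb was not tested. Spi1 itself had lower values in SUV-OE and did not pass the test. Of 13 tested Irf8 targets, 6 were separated upward and 1 downward, with a median of 0.32 (0.15 without control replicate 3, 0.19 without SUV-OE replicate 3, and up to 0.46 over the alternatives). Cd74, the invariant chain of antigen presentation, was the DEG of this list, at 1.35 and 1.39 FPKM in controls and 3.96 and 4.91 in SUV-OE (log2 fold change 1.19, adjusted p = 0.0488, limma). Cd74 is also abundant in B cells, whose markers moved as given above.

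Of 12 Myb targets, none was a DEG by limma (6 had an unadjusted p under 0.05, and voom called Bcl2), 5 were separated upward and 3 downward, and the median log2 fold change was 0.13 (0.28 after quantile normalization). The stem cell factor Sox4 had a log2 fold change of 1.13 and the survival gene Bcl2 of 0.86. The 23 tested Myc targets had no DEG by limma or voom (8 had an unadjusted p under 0.05 by limma), 17 were separated downward, none upward, and 22 had a negative fold change. Their median log2 fold change was -0.33, and it lay between -0.43 and -0.18 over the alternatives, the latter after quantile normalization. Apex1, a DNA repair endonuclease, was at 34.0 and 32.2 FPKM in controls and 16.4 and 17.5 in SUV-OE (log2 fold change -0.93, adjusted p = 0.0434, limma), under the fold threshold for a DEG. Odc1, the first enzyme of polyamine synthesis, had -0.73 and Ldha, lactate dehydrogenase, -0.60. Myc itself stood within its control range in both SUV-OE libraries.

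**Figure D5:**
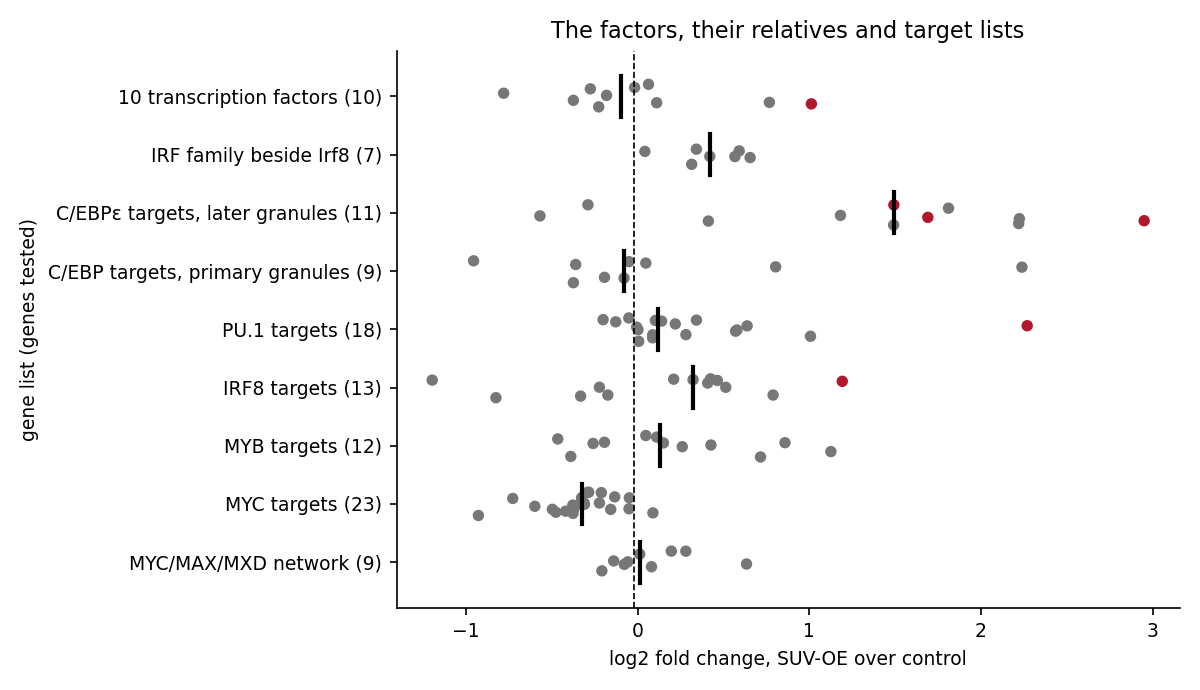
Log2 fold change in SUV-OE over control (horizontal axis) of each tested gene of the 10 transcription factors and of 8 lists of relatives and targets (number tested in parentheses), with DEGs in red, black bars at list medians and a dashed line at the median of all tested genes, -0.02. The granule genes of C/EBPε lie mostly to the right, with a median of 1.49, and the Myc targets mostly to the left, with a median of -0.33.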

How the data were processed

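Libraries were made with the TruSeq RNA v2 kit and read from both ends, and the authors used TopHat2 for alignment to mm10. The submitters' processing notes also name CASAVA 1.8. The deposited values are FPKM, 1 for each gene in each library, which the methods credit to Cufflinks. The authors called DEGs with DESeq2. The annotation release was not given in the sources used here. Groups came from the genotype labels, and all 4 libraries carried the label of RNA-seq batch 2, with no word on what the batch refers to.

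Of 23552 Ensembl IDs, 23438 matched GENCODE M21. In 18498 genes (78.5%) every value was a whole number of reads at the GENCODE exon length (tolerance 0.01 read), in 5047 at another length, and in 7 it was not. By the FPKM step of each library, 3 reads over 1 kb correspond to an FPKM of 0.154 to 0.178. The divisor that this step implies was 16873770 to 19453058 reads, below the recovered total of each library. Intervals from reads cover counting error only. Groups were compared by limma 3.58.1 (R 4.3.3) on log2(FPKM + 1) with an intensity trend, the group as the only term and Benjamini-Hochberg adjustment over 13736 genes whose mean FPKM reached 0.5. Limma-voom on recovered reads (mean of at least 10) was an alternative, beside a pseudocount of 0.1, no filter, a mean FPKM of at least 1, quantile and median-of-ratios scaling, no or a robust trend, an adjusted p under 0.1, and leaving out each library.

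The 10 genes and the lists were chosen with earlier results of these data known, so lists are described by counts and medians, with no test. Named genes were the 10 factors, Suv39h1 and Kit, and from each list the DEGs and the 3 genes with the largest absolute fold change whose groups did not overlap. Genes outside this rule are marked where named. A gene that the rule would name is not reported here. Promoter sequences came from RefSeq (GRCm38.p6). Protein sequences and the promoters of the other 4 factors were not used here.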

Additional observations from a re-analysis of the deposited data

How the results depend on the processing

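Each group had 2 libraries, so calls near a threshold were uncertain. A fit without 1 library has a group of 1, so it cannot show which library a call rests on. No paired analysis was possible because 1 number alone, replicate 3, occurs in both groups. Over 120 values of the 10 factors under the alternatives, 107 kept their direction and their side of the threshold, 5 lost the call and 8 changed sign. The 5 lost calls were all of Irf8: its adjusted p was 0.113 without the filter and 0.117 to 0.348 when any 1 library was left out, with a log2 fold change of 0.98 to 1.05. Leaving out a library left a group of 1, which is then assumed to vary like the others, and in each of these fits, as without the filter, the count of DEGs by limma was 0 over all genes (instead of 168) and 0 among the factors (instead of 1). Limma-voom on recovered reads called 772 genes, and its median log2 fold change over all genes was 0.08 instead of -0.02. Signs changed for 4 factors: Cebpa was 0.15 after quantile normalization, 0.0045 after median-of-ratios scaling, 0.081 with voom and -0.44 to 0.40 with a library left out, where Cebpd ran from -0.65 to 0.10, Myb from -0.016 to 0.14 and Myc from -0.076 to 0.30. The number of factors without overlap between groups, 5 of 10, was 6 to 10 with a library left out and 4 after median-of-ratios scaling. After quantile normalization and with voom it was 5 with other members: Spi1 overlapped and Myb did not. The cause of these shifts was not tested.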

Other observations

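Regulators of other blood lineages were measured in the same libraries. Of 18 tested hematopoietic regulators outside the 10 factors, 9 had both SUV-OE libraries above both controls and 1 below, with a median log2 fold change of 0.20, and 1 was a DEG by limma. Over all tested genes 25.4% were separated upward, 28.4% downward and 1.22% were DEGs by limma. Limma-voom called 3 of the regulators (Tal1, Gata1 and Klf1) and 5.39% of all genes. The median was 0.36 without control replicate 3, 0.11 without control replicate 4 and 0.42 with voom. Tal1, a regulator of stem cells and of erythroid and megakaryocytic cells, was at 0.1996 and 0.271 FPKM in controls and 2.54 and 2.23 in SUV-OE (log2 fold change 1.45, adjusted p = 0.0405, limma). Gata1, the erythroid and megakaryocytic GATA factor, was at 0.485 and 0.899 against 2.89 and 2.56 FPKM (1.15, adjusted p = 0.0735, limma), and Klf1, an erythroid factor, at 0.972 and 0.927 against 3.42 and 2.46 (adjusted p = 0.0840, limma). All 3 were low, and each had 125 reads or fewer per library except Tal1 in SUV-OE, with 197 and 174.

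Erythroid markers had 2 DEGs of 10 tested, 5 separated upward and none downward. Carbonic anhydrase 1 (Car1) was at 4.57 and 2.28 FPKM in controls and 33.4 and 32.0 in SUV-OE. The marker sum, 19.5 and 142 FPKM in controls, differed more between controls than between SUV-OE libraries. T and NK cell markers summed to 2.37 and 2.28 FPKM in controls and 2.64 and 2.39 in SUV-OE, with Cd8a, named because it was at the floor, at no more than 3 reads in any library. The part of erythroid cells in these levels was not tested.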
